A study of Rattus norvegicus with 30 samples.

Results

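The late lung response to severe acute pancreatitis was followed in 6 RNA-seq libraries, 3 of SAP-24h and 3 of Sham-24h rats, out of the 30 libraries of the series, and 15934 of the 22914 genes counted had enough reads to be tested. A library stands for 1 rat, a male Sprague Dawley aged 8 weeks and weighing 180 to 220 g, and 3 of the 6 rats of a group had their lung sequenced. All rats were fasted for 12 h and operated on under pentobarbital. In SAP-24h, 5.0% sodium taurocholate, a bile salt, was infused backwards into the biliopancreatic duct at 0.1 mL per 100 g body weight, which injures the pancreas, whereas in Sham-24h the pancreas was only turned slightly. Both groups were given saline intravenously and 0.5% carboxymethylcellulose into the stomach at 2 h and 12 h, neither received emodin or dexamethasone, and lungs were taken at 24 h after the pulmonary artery had been rinsed with saline. Values of the Con-24h rats, in which saline was infused into the duct, are given beside those of Sham-24h for some genes only, and the values of a group are in the order of rats 1, 2 and 3. SAP-6h and Sham-6h rats, which serve for the earlier time, were prepared in the same ways, and their lungs were taken at 6 h. They received only the doses at 2 h, so the times differ also in the number of doses. Each group is a model of the whole-lung response of young male rats at a single time.

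In acute pancreatitis, enzymes and inflammatory mediators released from the damaged pancreas reach the lung through the blood, where they activate the capillary endothelium and resident macrophages and draw neutrophils into the alveolar wall. Cytokine signals are relayed in the cell by NF-κB and, downstream of interleukin-6 receptors, by STAT3, and both pathways induce their own inhibitors, the transcription factors of the C/EBP family and acute-phase proteins. Lymphocyte numbers in blood commonly fall in severe systemic inflammation.

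Reads on genes numbered 26840953 to 31370567 in the 6 libraries. Lung identity was plain in both groups: the surfactant gene Sftpc had 17539 to 30191 FPKM and the club cell gene Scgb1a1 19207 to 46742 FPKM (FPKM, the fragment count scaled by gene length and library size). Of the 15 matched genes of exocrine pancreas, 4 gene IDs, among them Prss1, Pnlip and Clps, had no read in the 6 libraries, and 8 were tested with none called. Their summed FPKM was 206, 427 and 213 in SAP-24h and 277, 339 and 220 in Sham-24h, and the members with the most reads were Pla2g1b and Cela1, with 15953 and 2520 reads in SAP-24h and 15527 and 1454 in Sham-24h. Heart muscle genes summed to 14.2, 8.4 and 156 in SAP-24h and 221, 12.7 and 170 in Sham-24h FPKM. SAP-24h rat 1 stood apart from the other rats of its group. It was the highest SAP-24h rat for 210 of the 316 up-regulated genes and the lowest for 292 of the 480 down-regulated genes, and Sham-24h rat 3 was the Sham-24h rat closest to SAP-24h for 180 and 294 of them. Results without SAP-24h rat 1 are therefore also given, for the counts and for some of the lists and genes. The TMM scaling factor was 1.02 to 1.08 for Sham-24h libraries and 0.889 to 0.965 for SAP-24h libraries. The study's mapping summary lists a much smaller share of uniquely mapped reads for each SAP-24h library than for each Sham-24h or Con-24h library. This gap runs along the whole comparison and cannot be told apart from taurocholate.

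At 24 h, 316 genes rose and 480 genes fell in SAP-24h compared with Sham-24h at an adjusted p under 0.05 (edgeR's quasi-likelihood test, Benjamini-Hochberg adjustment over all genes tested) and at least 2-fold, which is 1.98% and 3.01% of the genes tested. The median change was 2.76-fold among the up-regulated and 2.87-fold among the down-regulated genes, and 81 and 128 of them changed at least 4-fold. Up-regulated genes included inhibitors and transcription factors of the STAT3 and NF-κB pathways, metallothioneins, chaperones, acute-phase proteins and cytokine receptors. Down-regulated genes included those of T cells and mast cells, some matrix genes such as Col3a1 and Postn, and alcohol dehydrogenases. Protein-coding genes made up 300 and 467 of the genes called and lincRNAs 7 and 10. The shares called, 1.98% up-regulated and 3.01% down-regulated, are the background for the count of each list below. Over all genes tested the median log2 fold change was -0.03. Every SAP-24h rat lay above every Sham-24h rat in FPKM for 250 of the 316 up-regulated genes (7.58% of all genes tested), and below for 463 of the 480 down-regulated genes (21.8% of all genes tested).

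**Figure D1:**
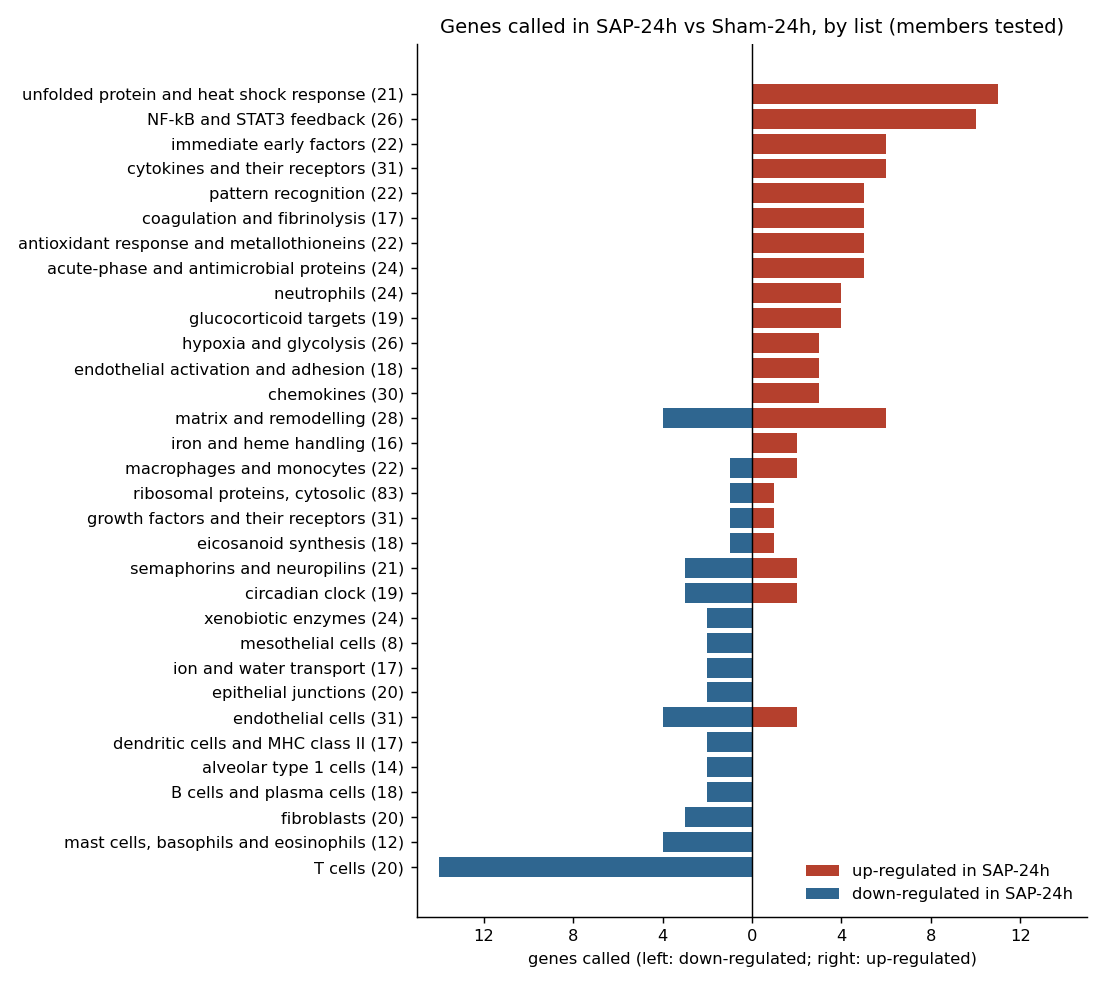
Number of genes called up-regulated (red, to the right) and down-regulated (blue, to the left) in SAP-24h vs Sham-24h in each list with at least 2 called genes; the number of members tested is in brackets. The T cell list has 14 genes down-regulated and none up-regulated, and the list of unfolded protein and heat shock genes has 11 up-regulated and none down-regulated.

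The number of genes called rested on the rats included. Without SAP-24h rat 1 there were 165 up-regulated and 237 down-regulated genes, and 134 and 175 of the genes called with all rats were among them. Without Sham-24h rat 2 the counts were 207 and 256, and without Sham-24h rat 1 they were 226 and 277. A total of 87 up-regulated and 115 down-regulated genes kept their call whichever rat was omitted. When the model held only these 6 libraries, 2 genes were up-regulated (Ptprn and Has1) and 1 was down-regulated (Rps6), with 3245 genes at an unadjusted p under 0.05 (4532 in the model of 30 libraries, which estimates the spread from all 10 groups). The call was lost when 1 rat was left out for Rps6 (in 5 of 6 fits, at -5.70 to -5.05), where brackets give the log2 fold change in the fit without that rat.

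**Figure D2:**
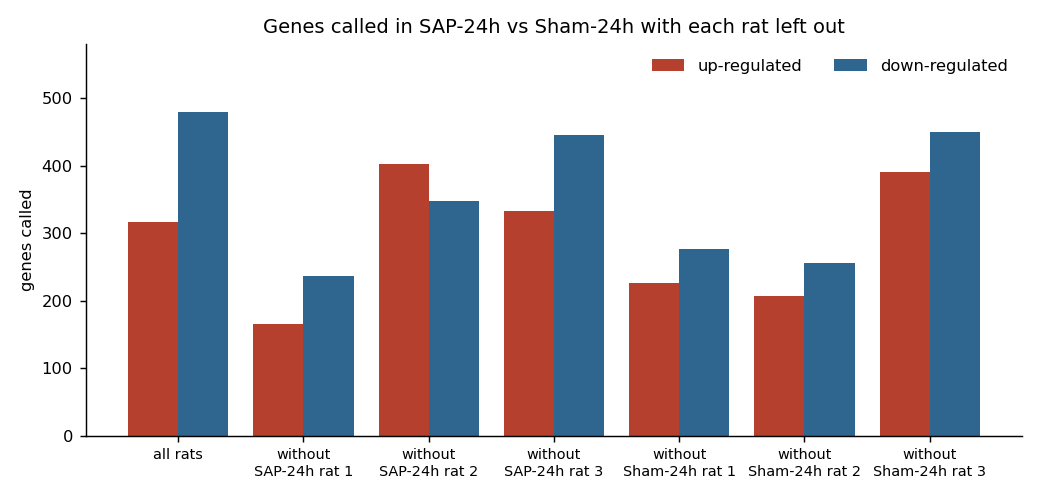
Number of genes called up-regulated (red) and down-regulated (blue) in SAP-24h vs Sham-24h with all rats and with each of the 6 rats left out in turn. The bars range from 165 to 402 for up-regulated and from 237 to 480 for down-regulated genes.

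Some feedback inhibitors and transcription factors of the NF-κB and STAT3 pathways rose. Of 26 genes tested in this list, 10 were up-regulated, against 1.98% of all genes, and none was down-regulated. The median log2 fold change of the list was 0.99. Socs3, which blocks receptors that signal through STAT3 (ENSRNOG00000002946, chromosome 10), had 287, 104 and 89.6 FPKM in the SAP-24h rats and 17.5, 9.79 and 33.1 FPKM in the Sham-24h rats. The lowest SAP-24h rat was thus above the highest Sham-24h rat, and the change was large (log2 fold change 3.16, SE 0.56, adjusted p = 0.00167, edgeR). Without SAP-24h rat 1 the log2 fold change of Socs3 was 2.36. Con-24h rats had 28.4, 14.1 and 19.2 FPKM. Bcl3, a nuclear protein of the IκB family that modulates NF-κB (ENSRNOG00000043416, chromosome 1), had 63.2, 27.3 and 46.6 FPKM in SAP-24h rats against 5.95, 5.12 and 12.7 FPKM in Sham-24h rats (log2 fold change 2.67, SE 0.42, adjusted p = 0.000938). Again no rat of one group reached the other.

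Stat3 itself had 133, 66.9 and 64.1 FPKM in SAP-24h rats and 37.3, 35.2 and 46.8 FPKM in Sham-24h rats (log2 fold change 1.30, SE 0.23, adjusted p = 0.00203). The kinase genes Pim1 and Pim3, which are induced by STAT-dependent cytokines, changed by 1.51 and 1.36 on the log2 scale (SE 0.27 and 0.19; adjusted p = 0.00203 and 0.000405, edgeR). Zc3h12a, an RNase that degrades cytokine transcripts, was 2.82-fold higher (log2 fold change 1.50, SE 0.24, adjusted p = 0.00106). The transcription factor gene Cebpd had 792, 335 and 381 FPKM in the SAP-24h rats and 78.5, 171 and 131 FPKM in the Sham-24h rats, and Cebpb had 509, 241 and 324 FPKM in SAP-24h rats against 118, 145 and 143 FPKM in Sham-24h rats. For both genes the 3 SAP-24h rats exceeded the 3 Sham-24h rats, by 2.13 (SE 0.43) and 1.55 (SE 0.28) on the log2 scale. Relb, Ier3 and Socs2 were also up-regulated, by 1.12, 1.46 and 1.24. Without SAP-24h rat 1, 6 genes of the list were called and its median was 0.70, and 16 were called without SAP-24h rat 2. Nfkbia, which encodes the main NF-κB inhibitor, overlapped between the groups with 373, 325 and 377 FPKM in SAP-24h rats and 171, 504 and 228 FPKM in Sham-24h rats (log2 fold change 0.37, SE 0.34, adjusted p = 0.512). A single rat left out ended the call for Stat3 (0.81 without SAP rat 1), Relb (0.95 without SAP rat 1 and 0.90 without Sham rat 2), Ier3 (0.60 without SAP rat 1) and Socs2 (0.69 without SAP rat 1 and 1.08 without Sham rat 1).

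Immediate early factors, which are transcribed within minutes of a stimulus, rose in part. Of 22 genes tested, 6 were up-regulated, against 1.98% of all genes, and none was down-regulated. The median log2 fold change was 1.09, and 0.61 with 4 genes called without SAP-24h rat 1. Fosl2, a component of AP-1, had 17.2, 11.04 and 9.6 FPKM in the SAP-24h rats and 3.12, 3.21 and 5.08 FPKM in the Sham-24h rats (log2 fold change 1.87, SE 0.29, adjusted p = 0.000894). Junb had 396, 134 and 140 FPKM in SAP-24h rats against 52.3, 43.4 and 58.6 FPKM in Sham-24h rats (log2 fold change 2.28, SE 0.39, adjusted p = 0.00143). In each of these genes every SAP-24h rat was above every Sham-24h rat. The nuclear receptor gene Nr4a3 was low, with 2.62, 1.29 and 0.97 FPKM in SAP-24h rats and 0.16, 0.09 and 0.15 FPKM in Sham-24h rats, and rose by 3.76 on the log2 scale (SE 0.63). Maff rose by 1.97 (SE 0.38). Without SAP-24h rat 1 the log2 fold changes of Junb and Nr4a3 were 1.51 and 3.18. The change of Myc was 1.58 with all rats and 0.65 without SAP-24h rat 1, and that of Zfp36, which destabilises cytokine transcripts, was 1.52 and 0.78. Fos and Egr1 overlapped between the groups, with log2 fold changes of 0.94 and 2.07 (adjusted p = 0.257 and 0.095, edgeR). Not called with 1 rat left out were Myc (0.65 without SAP rat 1) and Zfp36 (0.78 without SAP rat 1 and 1.35 without Sham rat 1).

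Most of the cytokine genes that rose encode receptors. In the list of cytokines and their receptors, 6 of 31 genes tested were up-regulated, against 1.98% of all genes, and none was down-regulated. The median log2 fold change was 0.66, with 2 genes called without SAP-24h rat 1 and 8 without SAP-24h rat 2. Il1r2, the decoy receptor for interleukin-1 that neutrophils and monocytes carry (ENSRNOG00000014378, chromosome 9), had 152, 126 and 203 FPKM in the SAP-24h rats and 7.05, 5.41 and 35.1 FPKM in the Sham-24h rats. The lowest SAP-24h rat was above the highest Sham-24h rat, Sham-24h rat 3, and the log2 fold change was 3.46 (SE 0.86, adjusted p = 0.0129, edgeR). Tnfrsf1a, the main receptor for tumour necrosis factor, had 174, 92.5 and 92.9 FPKM in SAP-24h rats against 54.9, 46.4 and 66.5 FPKM in Sham-24h rats (log2 fold change 1.25, SE 0.20, adjusted p = 0.00106). The interleukin-4 receptor gene Il4r was 2.64-fold higher (log2 fold change 1.40, SE 0.24, adjusted p = 0.00159). Osmr, which binds oncostatin M, and Il6st, the signalling chain shared by the interleukin-6 family, changed by 1.58 and 1.05. Il6 had 11.04, 0.08 and 0.63 FPKM in SAP-24h rats and 0.11, 0.06 and 0.08 FPKM in Sham-24h rats, so that rat 1 was far above and rat 2 within the Sham-24h range. Its log2 fold change was 5.71 (adjusted p = 0.0141, edgeR) with all rats and 2.13 (adjusted p = 0.328) without SAP-24h rat 1. Il1b was not called, with 28.9, 20.6 and 120 FPKM in the SAP-24h rats and 30.2, 6.65 and 11.4 FPKM in the Sham-24h rats (log2 fold change 1.94, SE 0.69, adjusted p = 0.0661). Calls lost with 1 rat left out were those of Il1r2 (3.12 without Sham rat 1 and 3.05 without Sham rat 2), Tnfrsf1a (0.82 without SAP rat 1), Il4r (0.92 without SAP rat 1), Osmr (1.08 without SAP rat 1), Il6st (0.73 without SAP rat 1, 0.88 without Sham rat 1 and 0.88 without Sham rat 2) and Il6 (2.13 without SAP rat 1 and 5.53 without Sham rat 2).

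Of 30 chemokine genes tested, 3 were up-regulated, against 1.98% of all genes, and none was down-regulated. All 3 encode CXC chemokines that bind the neutrophil receptor CXCR2. Cxcl2 had 8.19, 1.13 and 10.8 FPKM in SAP-24h rats against 0.74, 0.67 and 0.51 FPKM in Sham-24h rats (log2 fold change 3.52, SE 0.64, adjusted p = 0.00203), with rat 2 the lowest of SAP-24h. Cxcl1 had 119, 6.75 and 37.1 FPKM in SAP-24h rats and 19.97, 10.9 and 11.01 FPKM in Sham-24h rats, and here SAP-24h rat 2 lay below the Sham-24h rats. The log2 fold change of Cxcl1 was 2.15 (SE 0.60) and 0.75 without SAP-24h rat 1 (adjusted p = 0.392, edgeR). Cxcl6 was low, at 0.63, 0.22 and 1.55 FPKM in the SAP-24h rats and 0.16, 0.04 and 0.18 FPKM in the Sham-24h rats (log2 fold change 2.79, SE 0.85). The median over all 30 chemokine genes was 0.25, and -0.24 without SAP-24h rat 1, with 1 to 4 genes up-regulated when 1 rat was left out. Ccl2, a monocyte attractant, and Cxcl10, an interferon-induced attractant of T cells, were not called (log2 fold changes 1.42 and 1.37, adjusted p = 0.307 and 0.607, edgeR). Leaving out 1 rat took away the call of Cxcl1 (0.75 without SAP rat 1, 2.02 without Sham rat 2 and 2.05 without Sham rat 3) and Cxcl6 (in 5 of 6 fits, at 1.94 to 3.17).

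The 3 chemokine genes and Bcl3 are shown with the stretch of promoter that holds a match to the NF-κB consensus, because their promoters share it. The sequences are from RefSeq (GRCr8), written 5′ to 3′ on the strand of the gene and 60 bases long, and capitals mark the matches. They lie at chr14:17479372-17479431, chr14:17467306-17467365, chr14:17596468-17596527 and chr1:88613576-88613635, all on the minus strand, 110 to 51 bases before the start of transcription of the chemokine genes and 80 to 21 bases before that of Bcl3.
Cxcl1: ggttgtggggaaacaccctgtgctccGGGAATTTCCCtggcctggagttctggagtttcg
Cxcl2: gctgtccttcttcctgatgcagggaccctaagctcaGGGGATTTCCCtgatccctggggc
Cxcl6: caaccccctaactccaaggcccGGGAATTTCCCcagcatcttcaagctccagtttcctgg
Bcl3: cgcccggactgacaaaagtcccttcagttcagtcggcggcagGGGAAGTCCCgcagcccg
In each chemokine promoter the capitals cover 2 matches that are shifted by 1 base.

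Promoters of 216 up-regulated, 319 down-regulated and 10790 tested genes were found by symbol, and the 250 bases before the start were searched on both strands. An NF-κB match was present in 23 of the up-regulated (10.65%), 13 of the down-regulated (4.08%) and 476 of all promoters of tested genes (4.41%), and in 3.52% of all 27457 promoters of the reference table. The STAT3 motif TTCNNNGAA was present in 6.02%, 10.03% and 5.99%, the C/EBP motif TTNCGNAA in 3.24%, 1.57% and 3.05%, and the interferon-stimulated motif GAAANNGAAA in 3.24%, 4.08% and 2.69% of these classes. The glucocorticoid response element was present in 3 up-regulated, no down-regulated and 25 tested promoters. The RFX X-box was found in no promoter of a called gene and in 33 of the tested. These shares are descriptions of the letters in these windows and were not tested.

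Of 24 neutrophil genes tested, 4 were up-regulated, against 1.98% of all genes, and none was down-regulated. The log2 fold change was above 0 for 23 of the 24, with a median of 1.20. In 8 of the 24 every SAP-24h rat was above every Sham-24h rat, against 7.58% of all genes, and 1 to 12 genes were called when 1 rat was left out (12 without Sham-24h rat 3). Among them were the chemokine receptor gene Cxcr1, Trem1, which amplifies inflammatory signals, and the integrin gene Itgam, with log2 fold changes of 1.27, 1.12 and 1.15 (adjusted p = 0.0264, 0.0445 and 0.045, edgeR). The calprotectin gene S100a8 had 6662, 2065 and 7944 FPKM in SAP-24h rats against 578, 81.2 and 4662 FPKM in Sham-24h rats. Sham-24h rat 3 therefore exceeded SAP-24h rat 2, and S100a8 was not called (log2 fold change 1.78, SE 1.02, adjusted p = 0.256). The summed FPKM of the list was 13677, 4977 and 18077 in SAP-24h and 2146, 500 and 9776 in Sham-24h, and it was 356 to 1384 in Con-24h. In bulk tissue, more cells of a type and more RNA per cell cannot be told apart, nor can fewer cells and less RNA per cell. The part that neutrophil RNA had in the cytokine receptor, pattern recognition and acute-phase results was not tested. The call was lost when 1 rat was left out for Cxcr1 (in 4 of 6 fits, at 1.02 to 1.30), Trem1 (in 5 of 6 fits, at 0.88 to 1.30) and Itgam (in 5 of 6 fits, at 0.76 to 1.18).

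Acute-phase and antimicrobial proteins rose in 5 of 24 genes tested, against 1.98% of all genes, and fell in none (median log2 fold change 1.58). The number called was 2 without Sham-24h rat 1, 3 without SAP-24h rat 3 or Sham-24h rat 2, 10 without Sham-24h rat 3 and 11 without SAP-24h rat 2. Lbp, which carries lipopolysaccharide to CD14 (ENSRNOG00000014532, chromosome 3), had 76.3, 80.5 and 92.6 FPKM in SAP-24h rats and 21.2, 16.8 and 33.5 FPKM in Sham-24h rats (log2 fold change 1.93, SE 0.25, adjusted p = 0.000405). The groups did not overlap, and Con-24h rats had 36.9, 22.1 and 19.5 FPKM. Orm1, the acute-phase protein orosomucoid, had 11.9, 15.5 and 24.5 FPKM in the SAP-24h rats and 2.77, 1.81 and 2.25 FPKM in the Sham-24h rats (log2 fold change 3.04, SE 0.66, adjusted p = 0.00552), with Con-24h rats at 1.17, 2.24 and 10.3 FPKM. Chi3l1 was 2.20-fold higher (log2 fold change 1.14, SE 0.36, adjusted p = 0.0404). The C-type lectin gene Reg3g was low, at 2.68, 0.17 and 5.68 FPKM in SAP-24h rats against 0.15, 0 and 0.07 FPKM in Sham-24h rats (log2 fold change 5.29, SE 1.47), and belongs to a family whose reads may be divided among similar members. The fibrinogen gene Fga was called as well, but at 0.42, 0.05 and 0.09 FPKM in SAP-24h rats and 0, 0 and 0.01 FPKM in Sham-24h rats. The Orm1 promoter is shown because it holds 1 of the 3 matches to the glucocorticoid motif GNACANNNTGTNC among up-regulated genes (RefSeq, GRCr8, chr5:81788359-81788418, plus strand, 150 to 91 bases before the start, match in capitals).
Orm1: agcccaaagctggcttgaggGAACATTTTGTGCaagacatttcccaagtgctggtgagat
A single rat left out ended the call for Chi3l1 (in 4 of 6 fits, at 0.79 to 1.29), Reg3g (in 4 of 6 fits, at 4.39 to 6.19) and Fga (3.98 without SAP rat 1, 4.98 without Sham rat 1 and 5.01 without Sham rat 2).

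In the pattern recognition list, 5 of 22 genes tested were up-regulated, against 1.98% of all genes, and none was down-regulated. The median was 0.30, and 0.11 to 0.52 with 2 to 6 called when 1 rat was left out. Cd14, the co-receptor for lipopolysaccharide, had 158, 74.5 and 70.96 FPKM in the SAP-24h rats and 28.9, 37.5 and 39.7 FPKM in the Sham-24h rats (log2 fold change 1.67, SE 0.34, adjusted p = 0.00384). Myd88, the adaptor below most Toll-like receptors, was 2.03-fold higher (log2 fold change 1.02, SE 0.18, adjusted p = 0.00199). Tlr2 had 14.6, 13.4 and 23.0 FPKM in SAP-24h rats against 5.11, 1.84 and 9.9 FPKM in Sham-24h rats (log2 fold change 1.72, SE 0.49, adjusted p = 0.0253), with the highest Sham-24h value again in rat 3. Not called with 1 rat left out were Myd88 (0.74 without SAP rat 1, 0.99 without Sham rat 1 and 0.95 without Sham rat 2) and Tlr2 (in 4 of 6 fits, at 1.31 to 1.78).

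Metallothioneins, which bind zinc and copper and respond to metals, glucocorticoids and cytokines, showed some of the largest rises. Mt2A (ENSRNOG00000043098, chromosome 19) had 4646, 514 and 532 FPKM in SAP-24h rats and 28.9, 56.4 and 53.3 FPKM in Sham-24h rats (log2 fold change 5.55, SE 1.16, adjusted p = 0.00436). All SAP-24h rats were above all Sham-24h rats, and SAP-24h rat 1 was far above the other SAP-24h rats. Without rat 1 the log2 fold change was 3.58 (adjusted p = 0.0367, edgeR). Con-24h rats had 271, 23.02 and 28.2 FPKM. Of the gene IDs with the symbol Mt1, the one on chromosome 17 had 2190, 342 and 302 FPKM in the SAP-24h rats and 55.8, 86.9 and 76.4 FPKM in the Sham-24h rats and the one on chromosome 19 56.3, 12.1 and 8.16 FPKM in SAP-24h rats against 0.97, 2.66 and 0.99 FPKM in Sham-24h rats. The copies are alike in sequence, and reads may be divided between them. Their log2 fold changes were 3.88 (SE 0.67) and 4.22 (SE 0.73), and 2.23 and 2.80 without SAP-24h rat 1. In the list of antioxidant genes and metallothioneins, 5 of 22 genes tested were up-regulated, against 1.98% of all genes, and none was down-regulated. The median was 0.19, and 0.16 to 0.38 with 3 to 7 called when 1 rat was left out. The other two called were Sod2, the mitochondrial superoxide dismutase (270, 60.97 and 227 FPKM in SAP-24h rats and 58.5, 35.1 and 85.8 FPKM in Sham-24h rats), whose groups overlapped, and Hmox1, which degrades heme (81.8, 27.6 and 35.3 FPKM in the SAP-24h rats and 24.8, 19.6 and 26.8 FPKM in the Sham-24h rats). Both lost their call without SAP-24h rat 1, with log2 fold changes of 1.35 and 0.50. Calls lost with 1 rat left out were those of Sod2 (1.35 without SAP rat 1 and 1.52 without Sham rat 2) and Hmox1 (0.50 without SAP rat 1 and 1.08 without Sham rat 2).

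The promoters of Mt1 and Mt2A, neighbours on chromosome 19, are shown with the metal response motif TGCGCNC in capitals, a motif chosen after the gene values were seen. They are from RefSeq (GRCr8, minus strand), chr19:10833016-10833125 and chr19:10838749-10838888, from 150 and 180 to 41 bases before the start.
Mt1: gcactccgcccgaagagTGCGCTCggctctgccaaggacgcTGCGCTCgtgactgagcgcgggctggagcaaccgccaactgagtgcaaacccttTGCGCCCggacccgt
Mt2A: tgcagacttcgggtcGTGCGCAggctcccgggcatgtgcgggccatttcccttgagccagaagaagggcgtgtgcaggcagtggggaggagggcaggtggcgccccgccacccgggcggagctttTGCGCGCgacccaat
These windows hold 3 and 2 matches. The motif itself is common, with a match in 19.91% of up-regulated, 20.69% of down-regulated and 21.6% of all tested promoters.

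Among glucocorticoid targets, 4 of 19 genes tested were up-regulated, against 1.98% of all genes, and none was down-regulated. The median log2 fold change was 0.44. It was 0.2 without Sham-24h rat 1 and 0.84, with 6 genes called, without Sham-24h rat 2. The 4 called with all rats were the metallothionein IDs and Cebpd, all of which are also targets of other signals. The part of glucocorticoids in these calls was not tested. Fkbp5 and Tsc22d3, which respond to glucocorticoids in most tissues, were not called. Fkbp5 had 57.7, 99.2 and 73.9 FPKM in SAP-24h rats against 33.6, 110 and 39.9 FPKM in Sham-24h rats (log2 fold change 0.44, SE 0.43, adjusted p = 0.535). Per1, a further target, changed by 0.44 (adjusted p = 0.138, edgeR).

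Unfolded protein and heat shock genes rose in 11 of 21 genes tested, against 1.98% of all genes, and fell in none. Their median log2 fold change was 1.17, but they rose mostly in 1 rat. Hspb1, a small chaperone, had 4436, 306 and 643 FPKM in SAP-24h rats and 300, 321 and 617 FPKM in Sham-24h rats. SAP-24h rats 2 and 3 lay within or close to the Sham-24h range. Its log2 fold change was 2.31 (SE 0.61, adjusted p = 0.0177, edgeR) with all rats and 0.28 (adjusted p = 0.716) without rat 1. The endoplasmic reticulum chaperone gene Hspa5 had 849, 141 and 328 FPKM in the SAP-24h rats and 121, 97.5 and 194 FPKM in the Sham-24h rats, and its log2 fold change was 1.85 and 0.86 without rat 1. Hspa1b had 170, 3.49 and 39.3 FPKM in SAP-24h rats against 2.75, 4.19 and 2.79 FPKM in Sham-24h rats. It was called whichever rat was left out, although SAP-24h rat 2 was within the Sham-24h range. Dnajb1 had 81.6, 34.5 and 70.2 FPKM in SAP-24h rats and 28.2, 26.3 and 24.1 FPKM in Sham-24h rats (log2 fold change 1.39, SE 0.27, adjusted p = 0.00305), and Bag3 had 77.3, 27.99 and 38.6 FPKM in the SAP-24h rats and 20.6, 21.6 and 22.5 FPKM in the Sham-24h rats. These last genes did not overlap between the groups. Without SAP-24h rat 1, 2 genes of the list were called and the median was 0.44, and 5 to 16 were called when 1 of the other rats was left out. Atf4, the transcription factor of amino acid and endoplasmic reticulum stress, had 612, 254 and 335 FPKM in SAP-24h rats against 161, 188 and 199 FPKM in Sham-24h rats (log2 fold change 1.28, SE 0.29, adjusted p = 0.00755). Leaving out 1 rat took away the call of Hspb1 (0.28 without SAP rat 1, 2.14 without Sham rat 1 and 2.17 without Sham rat 2), Hspa5 (0.86 without SAP rat 1 and 1.66 without Sham rat 2), Bag3 (0.72 without SAP rat 1) and Atf4 (0.77 without SAP rat 1).

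The Hspb1 promoter is shown for its 2 matches to the heat shock motif GAANNTTC (in capitals; RefSeq, GRCr8, chr12:26432382-26432441, minus strand, 140 to 81 bases before the start).
Hspb1: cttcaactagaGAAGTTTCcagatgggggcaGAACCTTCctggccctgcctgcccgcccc
This motif, also chosen after the values were seen, had a match in 8.33% of up-regulated, 4.08% of down-regulated and 4.89% of all tested promoters.

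Genes of coagulation and fibrinolysis rose in 5 of 17 tested, against 1.98% of all genes, and fell in none (median 0.31). Plat, the tissue plasminogen activator of endothelium, had 547, 249 and 219 FPKM in SAP-24h rats and 69.9, 113 and 108 FPKM in Sham-24h rats (log2 fold change 1.96, SE 0.43, adjusted p = 0.00565; 1.36 without SAP-24h rat 1). Plaur, the urokinase receptor, had 30.8, 30.3 and 32.5 FPKM in the SAP-24h rats and 9.54, 15.5 and 15.9 FPKM in the Sham-24h rats, with little spread among the SAP-24h rats (log2 fold change 1.31, SE 0.24, adjusted p = 0.00203). Procr, the endothelial protein C receptor, had 54.5, 22.5 and 22.8 FPKM in SAP-24h rats against 14.6, 10.8 and 14.0 FPKM in Sham-24h rats (log2 fold change 1.50, SE 0.35, adjusted p = 0.0094). Thbs1 was 2.69-fold higher (log2 fold change 1.43, SE 0.43, adjusted p = 0.0318). Tfpi2 was raised mainly in SAP-24h rat 1, with 8.06, 0.15 and 0.87 FPKM in SAP-24h rats and 0.53, 0.21 and 0.55 FPKM in Sham-24h rats. Without SAP-24h rat 1 only 1 gene of this list, Plaur, was called. The call was lost when 1 rat was left out for Plat (1.36 without SAP rat 1), Procr (0.88 without SAP rat 1), Thbs1 (in 4 of 6 fits, at 0.98 to 1.55) and Tfpi2 (in 4 of 6 fits, at 0.32 to 3.27).

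Endothelial genes changed in both directions. In the list of endothelial activation, 3 of 18 genes tested were up-regulated (median 0.20, and 0.03 to 0.46 with 1 rat left out): Selp, the P-selectin that captures leukocytes (50.5, 5.11 and 6.48 FPKM in the SAP-24h rats and 1.99, 0.72 and 2.31 FPKM in the Sham-24h rats), Ptx3, a pentraxin of innate immunity (9.47, 3.23 and 13.4 FPKM in SAP-24h rats against 1.04, 2.39 and 0.77 FPKM in Sham-24h rats), and Lrg1 (227, 186 and 265 FPKM in SAP-24h rats and 72.3, 33.3 and 106 FPKM in Sham-24h rats). None of the 3 overlapped between the groups, and their log2 fold changes were 3.82, 2.75 and 1.81. Of all genes tested, 1.98% were up-regulated. Selp lost its call without SAP-24h rat 1 (1.89, adjusted p = 0.0852, edgeR). Icam1, which leukocytes bind to cross the vessel wall, had 88.96, 75.8 and 80.3 FPKM in the SAP-24h rats and 128, 65.6 and 83.99 FPKM in the Sham-24h rats and was not called (log2 fold change -0.04, SE 0.26, adjusted p = 0.944). A single rat left out ended the call for Selp (1.89 without SAP rat 1) and Lrg1 (1.48 without Sham rat 2).

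Of 31 endothelial identity genes tested, 2 were up-regulated and 4 were down-regulated, against 1.98% and 3.01% of all genes. The median of the list was -0.02, and -0.16 to 0.08 with 1 rat left out. Without SAP-24h rat 1 the counts were 1 and 2, without SAP-24h rat 2 they were 3 and 3, without SAP-24h rat 3 they were 3 and 6, and without Sham-24h rat 1 they were 2 and 2. Ednrb, the endothelin B receptor that marks alveolar capillary cells, had 48.3, 46.6 and 47.6 FPKM in SAP-24h rats against 24.7, 22.4 and 27.8 FPKM in Sham-24h rats (log2 fold change 1.06, SE 0.24, adjusted p = 0.00691). Flt1, a receptor and trap for vascular endothelial growth factor, had 76.3, 46.8 and 38.9 FPKM in SAP-24h rats and 20.5, 22.1 and 26.1 FPKM in Sham-24h rats (log2 fold change 1.39, SE 0.33, adjusted p = 0.00943). Emcn, a mucin of the capillary surface, had 26.5, 29.8 and 47.01 FPKM in the SAP-24h rats and 88.4, 96.6 and 70.5 FPKM in the Sham-24h rats (log2 fold change -1.19, SE 0.24, adjusted p = 0.00319). Nrp1, a co-receptor for the same growth factor and for semaphorins, had 9.0, 16.9 and 15.8 FPKM in SAP-24h rats against 41.7, 29.0 and 30.4 FPKM in Sham-24h rats (log2 fold change -1.16, SE 0.25, adjusted p = 0.00534). The transcription factor gene Sox7 and the apelin receptor gene Aplnr changed by -1.28 and -1.19. Cdh5 and Vwf, general markers of these cells, were not called (log2 fold changes -0.04 and 0.31, adjusted p = 0.916 and 0.336). The growth factor gene Vegfa, of epithelial origin in the alveolus, had 33.1, 35.3 and 44.7 FPKM in SAP-24h rats and 77.03, 73.6 and 69.1 FPKM in Sham-24h rats; every SAP-24h rat was below every Sham-24h rat at an adjusted p of 0.0108 (edgeR), but its log2 fold change of -0.83 was under the 2-fold limit. Not called with 1 rat left out were Flt1 (1.00 without SAP rat 1), Nrp1 (-0.94 without SAP rat 1 and -0.98 without Sham rat 1) and Aplnr (in 4 of 6 fits, at -1.21 to -0.96).

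**Figure D3:**
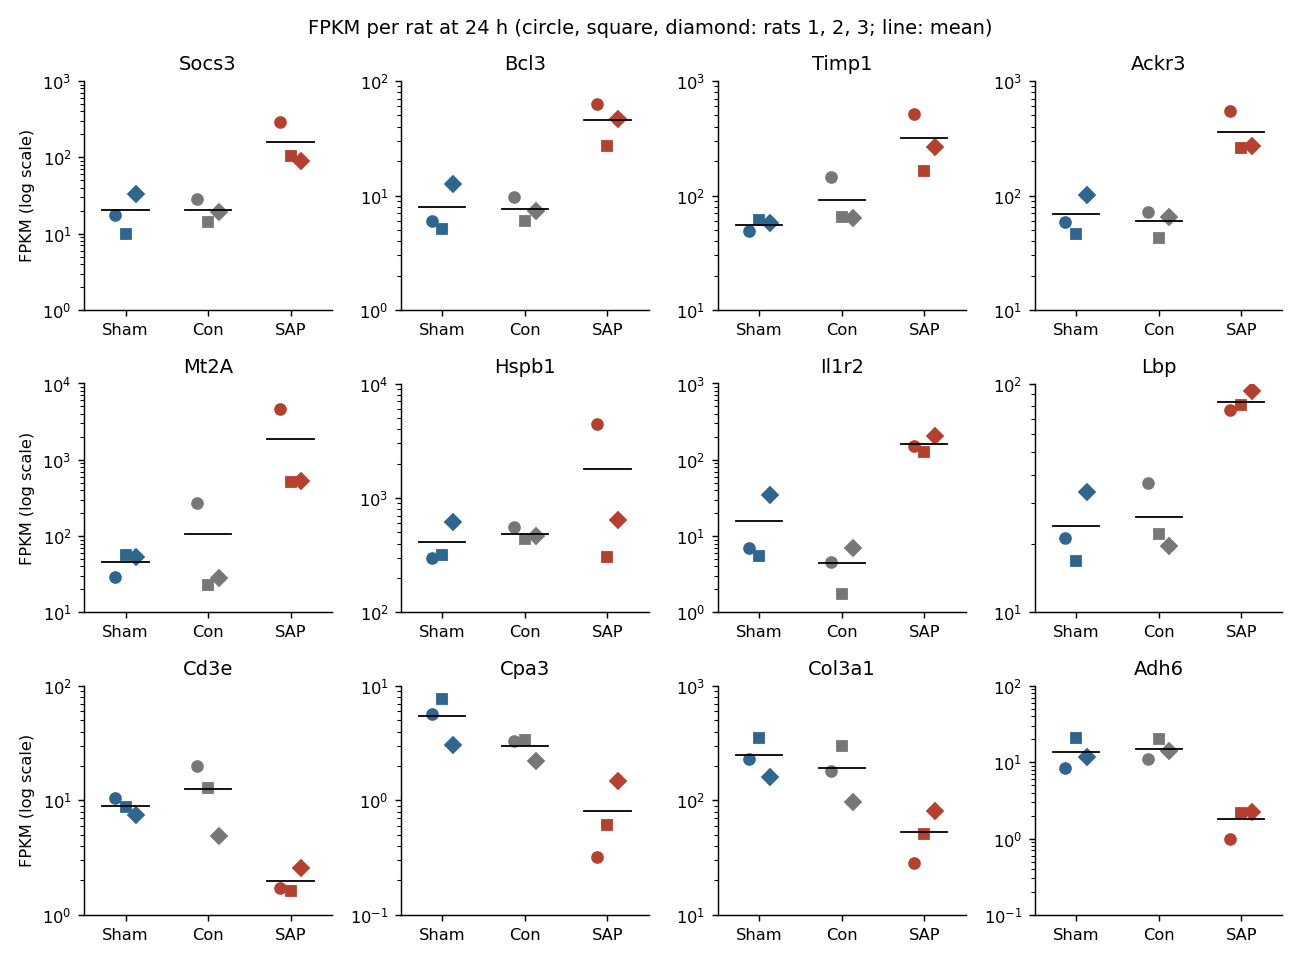
FPKM on a log axis of 12 genes in each rat of Sham-24h (blue), Con-24h (grey) and SAP-24h (red); circles, squares and diamonds are rats 1, 2 and 3 of a group and the line is the group mean. For Socs3, Bcl3, Timp1, Ackr3, Mt2A, Il1r2 and Lbp the 3 SAP-24h rats are above the 3 Sham-24h rats, for Hspb1 they overlap, and for Cd3e, Cpa3, Col3a1 and Adh6 they are below.

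T cell genes were lower in SAP-24h. Of 20 genes tested, 14 were down-regulated, 6 were not called and none was up-regulated, against 3.01% of all genes, and in all 20 every SAP-24h rat was below every Sham-24h rat, against 21.8% of all genes. The median log2 fold change was -1.61. Cd3e, part of the T cell receptor complex (ENSRNOG00000016069, chromosome 8), had 1.71, 1.63 and 2.58 FPKM in the SAP-24h rats and 10.6, 8.68 and 7.41 FPKM in the Sham-24h rats (log2 fold change -2.04, SE 0.51, adjusted p = 0.0127), and Con-24h rats had 20.03, 12.9 and 4.86 FPKM. Cd3d had 1.93, 1.76 and 2.27 FPKM in SAP-24h rats against 11.4, 9.03 and 5.68 FPKM in Sham-24h rats (log2 fold change -2.0, SE 0.48, adjusted p = 0.0101), and Cd3g changed by -1.98 (SE 0.55). In Cd3e the gap between the groups was wider than the range within either. Calls lost with 1 rat left out were those of Cd3e (-1.98 without SAP rat 1) and Cd3g (-1.92 without SAP rat 1, -1.83 without SAP rat 2 and -1.75 without Sham rat 1).

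Transcription factors of the T cell lineage fell with them. Bcl11b, needed for T cell identity, had 0.12, 0.14 and 0.18 FPKM in SAP-24h rats and 0.91, 0.61 and 0.49 FPKM in Sham-24h rats (log2 fold change -2.04, SE 0.45, adjusted p = 0.00626), and Tcf7 had 2.02, 4.9 and 5.29 FPKM in the SAP-24h rats and 11.6, 9.17 and 8.53 FPKM in the Sham-24h rats (log2 fold change -1.15, SE 0.26, adjusted p = 0.00754). The signalling kinases Lck and Zap70 and the receptors Cd5, Cd6, Cd27 and Cd28 were down-regulated too, with log2 fold changes between -2.20 (Cd27) and -1.46 (Zap70). The co-receptor genes Cd4 and Cd8a missed the threshold (log2 fold changes -1.01 and -1.74, adjusted p = 0.0556 and 0.074, edgeR). The summed FPKM of the list was 31.6, 35.9 and 39.1 in SAP-24h and 133, 93.7 and 92.7 in Sham-24h. The number of T cell genes called was 2 without SAP-24h rat 1 and 4 to 10 without 1 of the other rats, whereas the median stayed between -1.73 and -1.44 in these fits. Bcl11b and Cd3d were called whichever rat was left out. Leaving out 1 rat took away the call of Tcf7 (-0.84 without SAP rat 1), Cd27 (-2.32 without SAP rat 1, -1.97 without SAP rat 2 and -1.87 without Sham rat 1), Zap70 (in 6 of 6 fits, at -1.56 to -1.32), Lck (in 6 of 6 fits, at -1.60 to -1.34), Cd5 (in 4 of 6 fits, at -2.36 to -1.64), Cd6 (-2.01 without SAP rat 1, -2.06 without SAP rat 2 and -1.87 without Sham rat 1) and Cd28 (in 5 of 6 fits, at -1.95 to -1.69).

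Genes of NK and cytotoxic cells were lower in every SAP-24h rat than in every Sham-24h rat for 15 of 16 genes tested, against 21.8% of all genes, but only Ncr1, an activating receptor of NK cells, was called down (0.22, 0.22 and 0.36 FPKM in SAP-24h rats against 1.22, 0.88 and 1.6 FPKM in Sham-24h rats; log2 fold change -2.08, SE 0.69, adjusted p = 0.0493), against 3.01% of all genes. The median log2 fold change of the list was -1.11. The granule genes Gzma and Gzmb had 9.34, 5.66 and 7.17 FPKM in SAP-24h rats and 22.6, 11.6 and 15.9 FPKM in Sham-24h rats and 0.58, 0.27 and 0.29 FPKM in the SAP-24h rats and 1.03, 0.65 and 0.63 FPKM in the Sham-24h rats, respectively, with adjusted p of 0.442 and 0.621 (edgeR). Ctsw, a protease of cytotoxic lymphocytes outside this list, was down-regulated with 1.08, 0.56 and 1.11 FPKM in SAP-24h rats against 9.38, 5.59 and 6.7 FPKM in Sham-24h rats (log2 fold change -2.84, SE 0.66, adjusted p = 0.0085). The summed FPKM of the list was 122, 127 and 116 in SAP-24h and 357, 244 and 299 in Sham-24h. In Con-24h it was 617, 367 and 124.5, so that Con-24h rat 3 lay within the SAP-24h range. The call was lost when 1 rat was left out for Ncr1 (in 6 of 6 fits, at -2.32 to -1.81).

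Of 18 genes of B cells and plasma cells tested, 2 were down-regulated, against 3.01% of all genes. These were Tnfrsf17 and Igj, both of plasma cells, and the median of the list was -0.28. It was -0.51 to 0.00 with 1 rat left out (0.00 without Sham-24h rat 1). In 4 of the 18 every SAP-24h rat was below every Sham-24h rat, a share like the 21.8% of all genes. The summed FPKM of the list was 104, 80.0 and 134 in SAP-24h and 316, 244 and 188 in Sham-24h. Igj, the joining chain of secreted antibodies, had 51.7, 31.2 and 60.02 FPKM in SAP-24h rats and 205, 183 and 110 FPKM in Sham-24h rats (log2 fold change -1.67, SE 0.49, adjusted p = 0.0279), and Tnfrsf17 had 0.38, 0.2 and 0.53 FPKM in the SAP-24h rats and 2.05, 2.29 and 0.98 FPKM in the Sham-24h rats. Neither of the called genes was called without SAP-24h rat 1. A single rat left out ended the call for Igj (in 4 of 6 fits, at -1.78 to -1.41) and Tnfrsf17 (in 4 of 6 fits, at -2.19 to -1.79).

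Mast cell, basophil and eosinophil genes fell in 4 of 12 tested, against 3.01% of all genes, and rose in none (median -1.51). With 1 rat left out, the median was -1.83 to -0.94 (-0.94 without Sham-24h rat 1), and 1 gene was called without SAP-24h rat 1 or 2 or Sham-24h rat 2, 2 without Sham-24h rat 1 and 4 without either of the others. Cpa3, the carboxypeptidase of mast cell granules, had 0.32, 0.61 and 1.49 FPKM in SAP-24h rats against 5.66, 7.7 and 3.06 FPKM in Sham-24h rats (log2 fold change -2.66, SE 0.52, adjusted p = 0.003). The chymase gene Cma1, the IgE receptor gene Fcer1a and the eosinophil receptor gene Ccr3 changed by -1.49, -2.15 and -2.75. Fcer1a had 0.15, 0.28 and 0.44 FPKM in SAP-24h rats and 0.48, 0.54 and 0.22 FPKM in Con-24h rats. Ccr3 had 0.03, 0.02 and 0.04 FPKM in SAP-24h rats and 0.1, 0.3 and 0.02 FPKM in Con-24h rats. Con-24h thus overlapped SAP-24h for both, but not for Cma1 (2.64, 3.86 and 2.0 FPKM in Con-24h rats against 0.43, 1.02 and 1.23 in SAP-24h rats). Mcpt2, a mast cell protease outside the list, had 0.13, 0.61 and 1.1 FPKM in SAP-24h rats and 11.5, 5.38 and 2.26 FPKM in Sham-24h rats (log2 fold change -3.26, SE 0.91, adjusted p = 0.0221) and belongs to a family of similar genes. The sums of this list were 28.1, 38.1 and 39.2 in SAP-24h and 109, 71.5 and 40.5 in Sham-24h. Not called with 1 rat left out were Cma1 (-1.18 without SAP rat 1, -1.57 without SAP rat 2 and -1.07 without Sham rat 2), Fcer1a (in 4 of 6 fits, at -2.27 to -1.80), Ccr3 (in 5 of 6 fits, at -3.13 to -1.28) and Mcpt2 (-2.79 without SAP rat 1, -3.24 without SAP rat 2 and -2.54 without Sham rat 1).

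Dendritic cell genes fell in 2 of 17 tested, Itgae (0.74, 0.5 and 0.71 FPKM in the SAP-24h rats and 1.87, 2.0 and 1.6 FPKM in the Sham-24h rats; log2 fold change -1.36, SE 0.28, adjusted p = 0.00445) and Xcr1 (0.03, 0.04 and 0.1 FPKM in SAP-24h rats against 0.97, 0.56 and 0.29 FPKM in Sham-24h rats), both of which mark cross-presenting dendritic cells, while Itgae is also carried by T cells of the epithelium. Of all genes, 3.01% were down-regulated. The median log2 fold change of the dendritic cell list was -0.52 (-0.22 without Sham-24h rat 1). In 6 of the 17 every SAP-24h rat was below every Sham-24h rat, against 21.8% of all genes. The MHC class II gene RT1-Da had 85.4, 159 and 107 FPKM in SAP-24h rats and 250, 219 and 144 FPKM in Sham-24h rats. It was not called (log2 fold change -0.68, SE 0.33, adjusted p = 0.184, edgeR). Of 22 macrophage and monocyte genes tested, Cd14 and Marco were up-regulated and Trem2 was down-regulated, against 1.98% and 3.01% of all genes. The median of the list was 0.27, and 0.02 without SAP-24h rat 2. Marco, a scavenger receptor, had 0, 51 and 15 reads in SAP-24h and none in Sham-24h, which is at least 7.37-fold higher against 3 reads per library, but SAP-24h rat 1 did not differ from Sham-24h. Trem2, a lipid receptor of macrophages, had 1.13, 1.61 and 1.19 FPKM in the SAP-24h rats and 7.26, 7.1 and 5.44 FPKM in the Sham-24h rats (log2 fold change -2.20, SE 0.63, adjusted p = 0.0259). The summed FPKM of macrophage genes overlapped, at 25848, 32103 and 24776 in SAP-24h and 26149, 18316 and 22806 in Sham-24h. Retnla, made by alternatively activated macrophages and airway epithelium, was among the genes with the largest fall, with 15.1, 10.8 and 8.33 FPKM in SAP-24h rats against 138, 183 and 52.9 FPKM in Sham-24h rats (log2 fold change -3.30, SE 0.81, adjusted p = 0.0112; Con-24h rats 63.7, 41.5 and 11.97 FPKM). Calls lost with 1 rat left out were those of Xcr1 (-3.01 without SAP rat 1), Trem2 (in 5 of 6 fits, at -2.34 to -2.12) and Marco (in 4 of 6 fits).

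**Figure D4:**
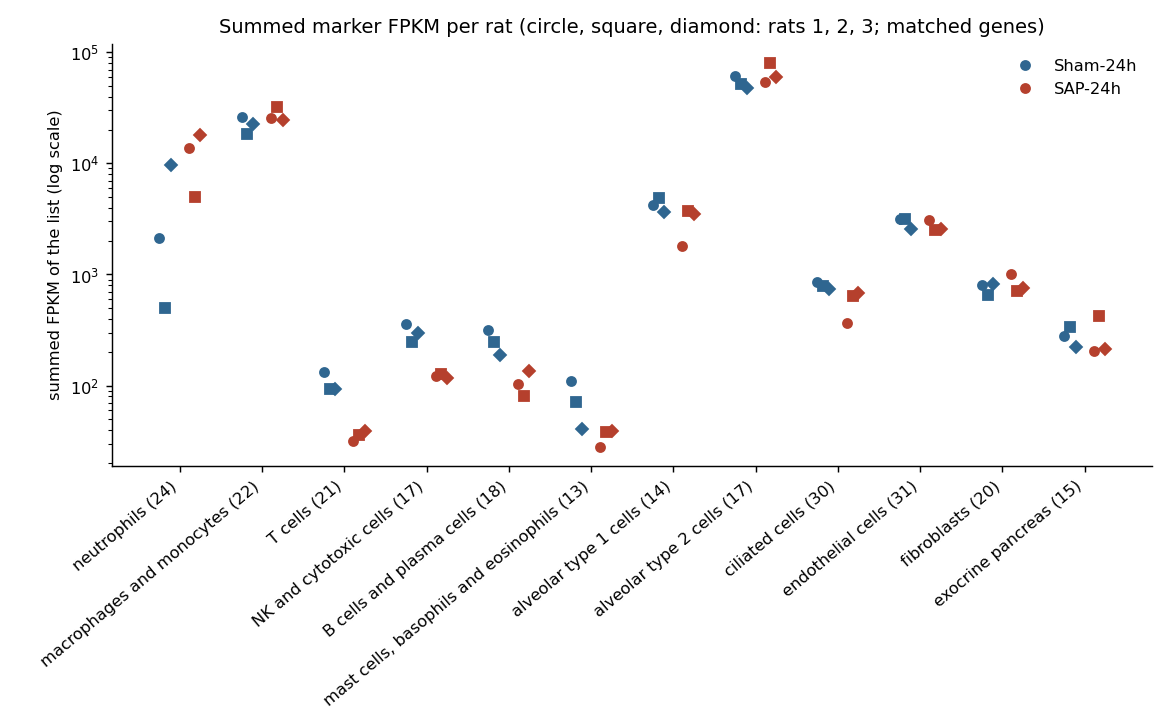
Summed FPKM of the matched marker genes of 12 cell lists (number of genes in brackets), on a log axis, in each Sham-24h (blue) and SAP-24h (red) rat; circles, squares and diamonds are rats 1, 2 and 3. The sums for T cells, NK and cytotoxic cells, B cells and mast cells are lower in all 3 SAP-24h rats, as are those of ciliated cells, and those for neutrophils, macrophages and alveolar type 2 cells overlap.

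Matrix genes changed in both directions. Of 28 genes tested (median -0.05), 6 were up-regulated and 4 were down-regulated, against 1.98% and 3.01% of all genes. The 6 were Timp1, the protease genes Adamts9, Adamts4 and Adamts1, the hyaluronan synthase gene Has1 and Lox, which crosslinks collagen and elastin. Timp1, the inhibitor of metalloproteinases (ENSRNOG00000010208, chromosome X), had 518, 164 and 265 FPKM in SAP-24h rats and 48.5, 60.7 and 57.7 FPKM in Sham-24h rats (log2 fold change 2.66, SE 0.42, adjusted p = 0.000938), with Con-24h rats at 146, 65.3 and 64.03 FPKM. Has1 had 4.3, 3.37 and 3.97 FPKM in the SAP-24h rats and 0.28, 0.28 and 0.44 FPKM in the Sham-24h rats, with little spread in either group (log2 fold change 3.66, SE 0.74, adjusted p = 0.00346). Adamts4 had 8.21, 1.26 and 2.06 FPKM in SAP-24h rats against 0.14, 0.07 and 0.24 FPKM in Sham-24h rats (log2 fold change 4.84, SE 0.82, adjusted p = 0.00127), and Adamts9 had 12.9, 6.96 and 9.64 FPKM in SAP-24h rats and 2.11, 3.38 and 1.9 FPKM in Sham-24h rats (log2 fold change 2.13, SE 0.33, adjusted p = 0.000938). Col3a1, a fibrillar collagen (ENSRNOG00000003357, chromosome 9), had 28.5, 51.2 and 80.5 FPKM in the SAP-24h rats and 232, 354 and 161 FPKM in the Sham-24h rats (log2 fold change -2.12, SE 0.48, adjusted p = 0.00743), and Postn, a matricellular protein, had 13.2, 12.6 and 22.2 FPKM in SAP-24h rats against 76.96, 99.2 and 47.8 FPKM in Sham-24h rats (log2 fold change -2.10, SE 0.40, adjusted p = 0.00273). The other down-regulated genes were Tnc and Col1a2, the latter at no more than 0.4 FPKM. Col1a1 was lower in each SAP-24h rat, with 7.33, 34.2 and 52.5 FPKM in SAP-24h rats and 77.3, 85.1 and 70.5 FPKM in Sham-24h rats, but was not called (log2 fold change -1.22, SE 0.52, adjusted p = 0.126). Without SAP-24h rat 1, 6 genes of the list were up-regulated and 2 down-regulated, and Adamts1 was no longer among them. The log2 fold changes of Timp1 and Adamts4 were 2.03 and 3.54 without that rat. With 1 of the other rats left out, 4 to 8 were up-regulated (4 without Sham-24h rat 1) and 3 to 5 down-regulated. Leaving out 1 rat took away the call of Adamts1 (in 4 of 6 fits, at 0.49 to 1.09), Lox (0.84 without Sham rat 1), Tnc (in 5 of 6 fits, at -1.77 to -1.39) and Col1a2 (-1.64 without SAP rat 1).

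Fibroblast genes fell in 3 of 20 tested, Scube2, Lum and Mfap4, against 3.01% of all genes, and rose in none. The median was -0.55, and -0.33 and -0.34 with 1 gene called each without SAP-24h rat 1 and without Sham-24h rat 1. Scube2 had 0.35, 0.96 and 0.95 FPKM in the SAP-24h rats and 4.74, 3.41 and 1.86 FPKM in the Sham-24h rats (log2 fold change -2.03, SE 0.42, adjusted p = 0.00404), and Lum, a small proteoglycan of collagen fibres, had 0.66, 1.16 and 1.77 FPKM in SAP-24h rats against 5.99, 5.11 and 3.21 FPKM in Sham-24h rats (log2 fold change -1.88, SE 0.53, adjusted p = 0.0236). Con-24h rats had 2.0, 2.86 and 1.17 FPKM for Lum, which overlaps SAP-24h. Mfap4 was near 0, at 0, 0.02 and 0.02 FPKM in SAP-24h rats and 1.24, 0.21 and 0.05 FPKM in Sham-24h rats. The related proteoglycan genes Ogn and Bgn were among the leading genes of the comparison. Ogn had 5.15, 2.75 and 6.96 FPKM in the SAP-24h rats and 20.3, 38.4 and 26.6 FPKM in the Sham-24h rats (log2 fold change -2.40, SE 0.38, adjusted p = 0.000938) and Bgn had 61.9, 103 and 102 FPKM in SAP-24h rats against 239, 264 and 129 FPKM in Sham-24h rats (log2 fold change -1.13, SE 0.33, adjusted p = 0.0286). Ctgf, a matrix-associated target of transforming growth factor β and YAP, had 33.1, 40.97 and 61.2 FPKM in SAP-24h rats and 107, 247 and 75.1 FPKM in Sham-24h rats (log2 fold change -1.56, SE 0.37, adjusted p = 0.0101). Of 31 genes of growth factors and their receptors, Tgfb2 rose, with 24.7, 20.9 and 23.3 FPKM in the SAP-24h rats and 8.47, 11.2 and 10.4 FPKM in the Sham-24h rats (log2 fold change 1.32, SE 0.20, adjusted p = 0.00079), and Fgfr4 fell, with 1.88, 3.66 and 4.8 FPKM in SAP-24h rats against 18.2, 15.2 and 11.4 FPKM in Sham-24h rats (log2 fold change -2.0, SE 0.38, adjusted p = 0.00273). Both were called whichever rat was left out. The shares of the list called, 3.23% in each direction, were near the 1.98% up-regulated and 3.01% down-regulated of all genes. Kcnj8, an ATP-sensitive potassium channel of pericytes, was the 1 called gene of 15 in smooth muscle and pericytes (6.67%, against 1.98% of all genes up-regulated). It was far higher in SAP-24h rat 1 than in the other rats (38.1, 5.13 and 5.42 FPKM in SAP-24h rats and 3.68, 4.04 and 3.51 FPKM in Sham-24h rats). Most of this list went the other way, with a negative log2 fold change for 13 of the 15 and a median of -0.46. In 9 of the 15 every SAP-24h rat was below every Sham-24h rat, against 21.8% of all genes. The call was lost when 1 rat was left out for Lum (in 4 of 6 fits, at -1.84 to -1.61), Mfap4 (-4.55 without SAP rat 1 and -3.12 without Sham rat 1), Bgn (-0.95 without SAP rat 1, -1.03 without Sham rat 1 and -0.91 without Sham rat 2), Ctgf (-1.41 without SAP rat 1 and -0.87 without Sham rat 2) and Kcnj8 (0.58 without SAP rat 1).

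Of 14 alveolar type 1 genes tested, 2 were down-regulated, Aqp5 and Akap5, against 3.01% of all genes (median -0.49, and -0.19 with none called without SAP-24h rat 1). Aqp5, the water channel of the alveolar surface (ENSRNOG00000051970, chromosome 7), had 25.2, 80.8 and 85.2 FPKM in the SAP-24h rats and 258, 194 and 152 FPKM in the Sham-24h rats (log2 fold change -1.55, SE 0.50, adjusted p = 0.0421), and Akap5 had 5.62, 28.4 and 33.4 FPKM in SAP-24h rats against 66.1, 49.9 and 46.9 FPKM in Sham-24h rats. SAP-24h rat 1 was the lowest in both. Ager, the most abundant marker of these cells, overlapped at 368, 991 and 934 FPKM in SAP-24h rats and 1125, 1361 and 974 FPKM in Sham-24h rats (log2 fold change -0.49, SE 0.33, adjusted p = 0.341). None of 17 alveolar type 2 genes was called (median 0.29, and 0.13 without SAP-24h rat 2). Sftpc had a log2 fold change of 0.29 (SE 0.21, adjusted p = 0.383, edgeR), and Sftpb had 4785, 9617 and 6430 FPKM in the SAP-24h rats and 5049, 4564 and 3313 FPKM in the Sham-24h rats (log2 fold change 0.81, SE 0.24, adjusted p = 0.0289), a rise under 2-fold. None of 15 club and mucous genes was called either, and Scgb1a1 rose by 0.75 on the log2 scale (adjusted p = 0.0409, edgeR), again under 2-fold. A single rat left out ended the call for Aqp5 (in 5 of 6 fits, at -1.79 to -1.18) and Akap5 (in 5 of 6 fits, at -1.37 to -0.72).

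Keratins moved separately. Krt14, of basal cells, had 35.4, 44.98 and 30.2 FPKM in SAP-24h rats against 93.01, 124 and 92.7 FPKM in Sham-24h rats (log2 fold change -1.36, SE 0.29, adjusted p = 0.00441), Krt19 had 28.4, 47.2 and 27.2 FPKM in SAP-24h rats and 89.1, 99.2 and 94.6 FPKM in Sham-24h rats (log2 fold change -1.34, SE 0.35, adjusted p = 0.0156), and Krt76 had 0.49, 0.82 and 0.41 FPKM in the SAP-24h rats and 5.77, 7.8 and 3.53 FPKM in the Sham-24h rats (log2 fold change -3.19, SE 0.58, adjusted p = 0.00203), whereas Krt81, a hair keratin with close relatives whose counts are therefore uncertain, was called up at 0.29, 1.22 and 6.95 FPKM in SAP-24h rats against 0.08, 0.02 and 0.03 FPKM in Sham-24h rats. The junction gene Cldn1 fell by 1.93 on the log2 scale (adjusted p = 0.016, edgeR). Its Con-24h values, 0.95, 3.24 and 2.58 FPKM, overlapped those of SAP-24h rats (0.43, 1.4 and 1.17 FPKM). Of 20 epithelial junction genes tested, Cldn1 and Krt19 were down-regulated (10.0%, against 3.01% of all genes) and none was up-regulated. The list median was 0.16, with a positive log2 fold change for 13 of the 20. Of 18 genes of eicosanoid synthesis (median 0.11), Hpgd, which inactivates prostaglandins, fell by 1.36 on the log2 scale, and Alox5ap, needed to make leukotrienes, rose, with 208, 227 and 272 FPKM in SAP-24h rats and 76.97, 75.9 and 146 FPKM in Sham-24h rats (log2 fold change 1.36, SE 0.31, adjusted p = 0.00767). This is 1 gene in each direction, or 5.56%, against 1.98% up-regulated and 3.01% down-regulated of all genes. Not called with 1 rat left out were Krt19 (-1.25 without SAP rat 1, -1.18 without SAP rat 3 and -1.28 without Sham rat 2), Cldn1 (-1.59 without SAP rat 1 and -1.22 without Sham rat 2) and Hpgd (-1.16 without SAP rat 1, -1.13 without SAP rat 2 and -1.03 without Sham rat 2).

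Both alcohol dehydrogenase genes called are linked to oxidation of retinol and other alcohols in epithelia. Adh6 (ENSRNOG00000012436, chromosome 2) had 0.99, 2.14 and 2.23 FPKM in the SAP-24h rats and 8.48, 20.6 and 11.8 FPKM in the Sham-24h rats (log2 fold change -2.83, SE 0.45, adjusted p = 0.000938), and Adh7 had 0.07, 0.05 and 0.03 FPKM in SAP-24h rats against 1.27, 1.89 and 2.58 FPKM in Sham-24h rats (log2 fold change -5.06, SE 0.83, adjusted p = 0.00106). Their groups were far apart, and Con-24h rats had 11.2, 20.1 and 13.9 FPKM for Adh6 and 0.82, 2.27 and 3.43 FPKM for Adh7. They were the 2 called of 24 xenobiotic enzyme genes tested (median 0.00), against 3.01% of all genes called down. The 2 kept their call whichever rat was left out. Cyp1a1, the main target of the aryl hydrocarbon receptor, varied within Sham-24h (3.6, 15.5 and 7.88 FPKM in SAP-24h rats and 5.45, 97.1 and 3.66 FPKM in Sham-24h rats) and was not called (log2 fold change -1.90, SE 0.96, adjusted p = 0.197).

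Clock genes moved in both directions (median -0.06): 2 of 19 tested were up-regulated and 3 were down-regulated, against 1.98% and 3.01% of all genes. The median of the clock genes was -0.40 without SAP-24h rat 2 and -0.34 without Sham-24h rat 2. It was -0.29 without Sham-24h rat 3 and 0.04 without SAP-24h rat 3. Nfil3, a repressor of clock output that also acts in immune cells, had 47.6, 16.01 and 25.3 FPKM in the SAP-24h rats and 4.01, 6.96 and 9.51 FPKM in the Sham-24h rats (log2 fold change 2.27, SE 0.41, adjusted p = 0.00203). Its counterparts that activate the same sites fell: Dbp had 6.55, 18.5 and 6.04 FPKM in SAP-24h rats against 122.97, 29.1 and 15.4 FPKM in Sham-24h rats (log2 fold change -2.28, SE 0.66, adjusted p = 0.0265) and Hlf had 2.62, 3.64 and 2.88 FPKM in SAP-24h rats and 11.1, 6.52 and 5.03 FPKM in Sham-24h rats (log2 fold change -1.18, SE 0.23, adjusted p = 0.00271). Per3 had 1.51, 2.44 and 1.07 FPKM in the SAP-24h rats and 5.65, 3.82 and 3.12 FPKM in the Sham-24h rats (log2 fold change -1.19, SE 0.27, adjusted p = 0.00805), and Npas2 rose by 1.12 (SE 0.34). For Dbp, SAP-24h rat 2 was above Sham-24h rat 3, and the groups of Npas2 overlapped too. Without Sham-24h rat 1 no clock gene was down-regulated, and 1 was without SAP-24h rat 3. The hour of day at which lungs were taken was not used here. Of 21 genes of semaphorins and their neuropilin receptors, 2 were up-regulated and 3 were down-regulated, against 1.98% and 3.01% of all genes. The counts of this list became 1 and 1 without SAP-24h rat 1, and 2 and 5 without SAP-24h rat 2. They were 1 and 3 without Sham-24h rat 2, and 2 with 2 to 4 without the others. Sema7a, which acts on monocytes and fibroblasts, had 219, 121 and 102 FPKM in SAP-24h rats against 18.4, 44.4 and 32.8 FPKM in Sham-24h rats (log2 fold change 2.35, SE 0.43, adjusted p = 0.00203), and Sema3c, a guidance factor secreted by epithelium, had 7.84, 10.2 and 15.5 FPKM in SAP-24h rats and 41.96, 44.4 and 33.1 FPKM in Sham-24h rats (log2 fold change -1.72, SE 0.24, adjusted p = 0.000405). Con-24h rats had 20.2, 22.8 and 23.7 FPKM for Sema3c, above every SAP-24h rat and below every Sham-24h rat. Calls lost with 1 rat left out were those of Dbp (-2.05 without SAP rat 1, -2.0 without SAP rat 3 and -0.98 without Sham rat 1), Hlf (-0.79 without Sham rat 1), Per3 (-0.94 without SAP rat 3 and -0.92 without Sham rat 1) and Npas2 (in 4 of 6 fits, at 0.83 to 1.05).

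Several of the leading genes lay outside these lists, which hold 135 of the 796 genes called. By adjusted p, Wnt4, a Wnt ligand of epithelium and mesenchyme (ENSRNOG00000013166, chromosome 5), came first, with 12.7, 19.2 and 20.1 FPKM in the SAP-24h rats and 7.41, 5.75 and 7.27 FPKM in the Sham-24h rats (log2 fold change 1.47, SE 0.17, adjusted p = 0.000208). Ackr3, a scavenging receptor for the chemokine CXCL12 (ENSRNOG00000019622, chromosome 9), had 543, 263 and 270 FPKM in SAP-24h rats against 58.7, 45.8 and 102 FPKM in Sham-24h rats (log2 fold change 2.54, SE 0.36, adjusted p = 0.000473). Ptprn, a protein of secretory granules, had 4.7, 6.04 and 8.07 FPKM in SAP-24h rats and 0.24, 0.16 and 0.18 FPKM in Sham-24h rats (log2 fold change 5.13, SE 0.73, adjusted p = 0.000405), and it was called at 6 h as well. The ceramidase gene Acer2 had 582, 481 and 452 FPKM in the SAP-24h rats and 204, 250 and 263 FPKM in the Sham-24h rats and the ceramide kinase gene Cerk 29.7, 24.7 and 24.3 FPKM in SAP-24h rats against 13.5, 14.3 and 15.4 FPKM in Sham-24h rats, log2 fold changes of 1.21 and 1.00. In each of these genes the groups did not overlap. Leaving out 1 rat took away the call of Cerk (0.86 without SAP rat 1 and 0.96 without Sham rat 1).

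Further up-regulated genes among the leading were Fam110d, Gpr146, Nuak2 and Irf2bpl, with log2 fold changes of 1.55, 1.44, 1.71 and 1.02 (adjusted p = 0.000405 for each of them, edgeR). Dlk1, a Notch-related protein of progenitor cells, had 325, 718 and 238 FPKM in SAP-24h rats and 41.9, 77.1 and 105 FPKM in Sham-24h rats, but Con-24h rats had 200, 357 and 479 FPKM, which overlaps SAP-24h. Tf, the iron carrier transferrin, had 275, 245 and 305 FPKM in the SAP-24h rats and 98.6, 41.7 and 142 FPKM in the Sham-24h rats (log2 fold change 1.68, SE 0.37, adjusted p = 0.00558). Tshb, the β chain of thyrotropin, was called up from low levels, with 2.18, 0.38 and 0.87 FPKM in SAP-24h rats against 0.05, 0 and 0.05 FPKM in Sham-24h rats. The call was lost when 1 rat was left out for Irf2bpl (0.88 without SAP rat 1).

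Hypoxia and glycolysis genes rose in 3 of 26 tested, against 1.98% of all genes, and fell in none (median 0.42). Only 1 was called without SAP-24h rat 1 or without Sham-24h rat 1. The lactate exporter gene Slc16a3 had 16.5, 18.2 and 29.97 FPKM in SAP-24h rats and 8.25, 5.15 and 12.04 FPKM in Sham-24h rats (log2 fold change 1.46, SE 0.30, adjusted p = 0.0036), and Hk2 and P4ha1 changed by 1.17 and 1.37. Gadd45a was the 1 called of 18 p53 targets (5.56%, against 1.98% of all genes), with a log2 fold change of 1.05. A single rat left out ended the call for Hk2 (0.65 without SAP rat 1, 0.98 without Sham rat 1 and 1.11 without Sham rat 2), P4ha1 (0.20 without SAP rat 1, 1.24 without Sham rat 1 and 1.21 without Sham rat 2) and Gadd45a (0.44 without SAP rat 1, 0.97 without Sham rat 1 and 1.09 without Sham rat 2).

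On the other side, Hibch, an enzyme of valine breakdown, had 2.44, 3.1 and 3.42 FPKM in the SAP-24h rats and 7.42, 7.82 and 7.29 FPKM in the Sham-24h rats (log2 fold change -1.21, SE 0.16, adjusted p = 0.000405), and the receptor phosphatase gene Ptprd had 1.32, 0.92 and 0.99 FPKM in SAP-24h rats against 3.65, 5.24 and 3.64 FPKM in Sham-24h rats (log2 fold change -1.83, SE 0.25, adjusted p = 0.000405). Gulp1, an adaptor for the uptake of dead cells, had 0.78, 0.8 and 1.23 FPKM in SAP-24h rats and 3.21, 3.25 and 2.44 FPKM in Sham-24h rats (log2 fold change -1.54, SE 0.24, adjusted p = 0.000894), and Gpcpd1, of choline metabolism, had 4.56, 3.61 and 6.25 FPKM in the SAP-24h rats and 11.2, 12.8 and 13.3 FPKM in the Sham-24h rats (log2 fold change -1.25, SE 0.20, adjusted p = 0.000995). Con-24h rats had 1.06, 1.32 and 1.33 FPKM for Gulp1 and 5.49, 6.81 and 7.23 FPKM for Gpcpd1. Sdpr, a protein of caveolae, had 32.9, 63.5 and 88.9 FPKM in SAP-24h rats against 168, 213 and 108 FPKM in Sham-24h rats (log2 fold change -1.29, SE 0.27, adjusted p = 0.00434). Rps6 was counted at 3.9, 1.74 and 2.74 FPKM in SAP-24h rats and 146, 133 and 94.1 FPKM in Sham-24h rats. Other groups, Sham-6h among them, held both low and high rats, with 4.17, 105 and 107 FPKM in Con-24h, 94.95, 3.24 and 2.52 FPKM in SAP-6h and 2.69, 3.05 and 98.89 FPKM in Sham-6h. Counts of this ribosomal protein gene are uncertain because it has near-identical copies, and no other of 83 cytosolic ribosomal protein IDs was called down. The 1 that rose, Rps28, is annotated as a processed pseudogene.

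Among the genes called, 7 up-regulated and 10 down-regulated were annotated as lincRNAs, and none of them has a role stated in the sources used here. AABR07054490.1 (chromosome 3) had 13.8, 7.86 and 9.96 FPKM in the SAP-24h rats and 4.45, 4.55 and 5.72 FPKM in the Sham-24h rats (log2 fold change 1.24, SE 0.19, adjusted p = 0.000938), AABR07004868.2 (chromosome 1) had 22.3, 14.6 and 11.2 FPKM in SAP-24h rats against 1.17, 2.3 and 2.36 FPKM in Sham-24h rats (log2 fold change 3.18, SE 0.61, adjusted p = 0.00263), and AABR07066529.3 (chromosome 9) had 11.5, 1.96 and 1.99 FPKM in SAP-24h rats and 0.03, 0.39 and 0.1 FPKM in Sham-24h rats (log2 fold change 5.07, SE 1.00, adjusted p = 0.00309). Each was higher in all SAP-24h rats than in all Sham-24h rats. Without SAP-24h rat 1 the log2 fold change of AABR07066529.3 was 3.59. AABR07012047.1 (chromosome 2) had 0.45, 0.46 and 0.67 FPKM in the SAP-24h rats and 1.91, 2.09 and 2.17 FPKM in the Sham-24h rats (log2 fold change -1.85, SE 0.30, adjusted p = 0.00106) and AABR07001555.1 (chromosome 1) had 0.24, 0.37 and 0.56 FPKM in SAP-24h rats against 2.28, 4.15 and 1.91 FPKM in Sham-24h rats (log2 fold change -2.69, SE 0.55, adjusted p = 0.0036), both lower in all SAP-24h rats. AABR07061384.1 had no read in SAP-24h and 1.56, 1.92 and 0.96 FPKM in Sham-24h, which is at least 5.26-fold lower in SAP-24h against 3 reads per library. Not called with 1 rat left out were AABR07054490.1 (0.95 without SAP rat 1) and AABR07061384.1 (without SAP rat 1).

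No gene was called in 16 of the 52 lists. Interferon response genes were among them (34 tested, median 0.21, and -0.54 without SAP-24h rat 1). Ifit3 had 84.2, 8.33 and 8.33 FPKM in SAP-24h rats and 7.72, 11.8 and 6.72 FPKM in Sham-24h rats and Mx1 had 7.79, 2.63 and 1.45 FPKM in the SAP-24h rats and 4.09, 18.5 and 2.84 FPKM in the Sham-24h rats, so that single rats of either group were high. Ciliated cell genes (30 tested) had a median of -0.33 (-0.16 without SAP-24h rat 1). That of complement genes (25) was 0.11 (-0.03 without SAP-24h rat 2 and 0.26 without Sham-24h rat 2). Proliferation genes (29) had -0.36 (-0.15 without Sham-24h rat 1), cholesterol and lipid genes (26) 0.24, and nuclear genes of oxidative phosphorylation (75) -0.01. Platelet and red cell genes were not called either, with medians of 0.75 and -0.22 (platelet genes 0.17 without SAP-24h rat 1, red cell genes 1.02 without Sham-24h rat 3).

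The early time, SAP-6h against Sham-6h, shares no library with the late one and had 30 up-regulated (0.188% of the genes tested) and 5 down-regulated genes (0.0314%), with 2080 at an unadjusted p under 0.05. With 1 rat left out there were 3 to 57 up-regulated (3 without Sham-6h rat 3, 57 without SAP-6h rat 1) and 0 to 3 down-regulated genes. Genes called at both times numbered 13, which is 1.63% of those called at 24 h and 37.1% of those called at 6 h. Up-regulated at both times were 12: Wnt4, Ptprn, F2rl3, Ednrb, Glis1, Kcnk5, Kcng4, Tmem2, Frzb, Ramp3, Ppp1r3g and Slc25a15. At 6 h, Wnt4 changed by 1.23 on the log2 scale, Ptprn by 3.54 and Ednrb by 1.28. Of the 316 genes up-regulated at 24 h, 87.0% were also higher at 6 h, with a median log2 fold change of 0.53 against 1.47 at 24 h. Of the 480 down-regulated, 75.4% were lower at 6 h, with a median of -0.41 against -1.52. Over all genes tested, 63.7% had the same direction at both times. The 24 h call of some of these genes was lost with 1 rat left out, namely Kcng4 (0.90 without SAP rat 1), Tmem2 (0.67 without SAP rat 1 and 0.97 without Sham rat 1), Frzb (in 4 of 6 fits, at 0.89 to 1.07) and Ramp3 (1.15 without SAP rat 1, 1.29 without Sham rat 1 and 1.32 without Sham rat 3).

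The list of NF-κB and STAT3 feedback had a median log2 fold change of 0.20 at 6 h against 0.99 at 24 h, T cells -0.40 against -1.61 and acute-phase proteins 0.29 against 1.58. The median of the mast cell list had the opposite sign at 6 h, at 0.47 against -1.51. No gene of these lists was called at 6 h. Socs3 changed by 0.56 and Timp1 by 0.20 at 6 h. Whether the effect differed between the times was tested by an interaction term, and 5 genes (0.0314%) passed, with 2003 at an unadjusted p under 0.05. DESeq2 gave larger counts at 6 h and by interaction, which are in the last section. With only 5 passing in the edgeR model, a smaller count or median at 6 h is not shown to differ from 24 h beyond these genes. They were Adh6 (interaction -3.57, SE 0.60), Zmynd12 (-2.98, SE 0.52), Stoml3 (-7.04, SE 1.26), Ccdc96 (-2.48, SE 0.46) and the lncRNA AABR07054490.1 (1.48, SE 0.27), each with an adjusted p of 0.0471 (edgeR). No gene passed without SAP-24h rat 3, Sham-24h rat 2, SAP-6h rat 2 or 3, or Sham-6h rat 1 or 2, while 1 passed without SAP-24h rat 1, 2 without Sham-24h rat 1 and 16 without SAP-6h rat 1. Zmynd12, Stoml3 and Ccdc96, of which Zmynd12 and Ccdc96 belong to motile cilia, had log2 fold changes of 1.55, 4.28 and 1.20 at 6 h and -1.43, -2.75 and -1.27 at 24 h, and only Stoml3 was called at 6 h. With 1 rat left out, the 24 h call was lost for Zmynd12 (-1.26 without SAP rat 1 and -1.15 without Sham rat 1), Stoml3 (in 6 of 6 fits, at -3.31 to -2.50) and Ccdc96 (-1.22 without SAP rat 1).

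**Figure D5:**
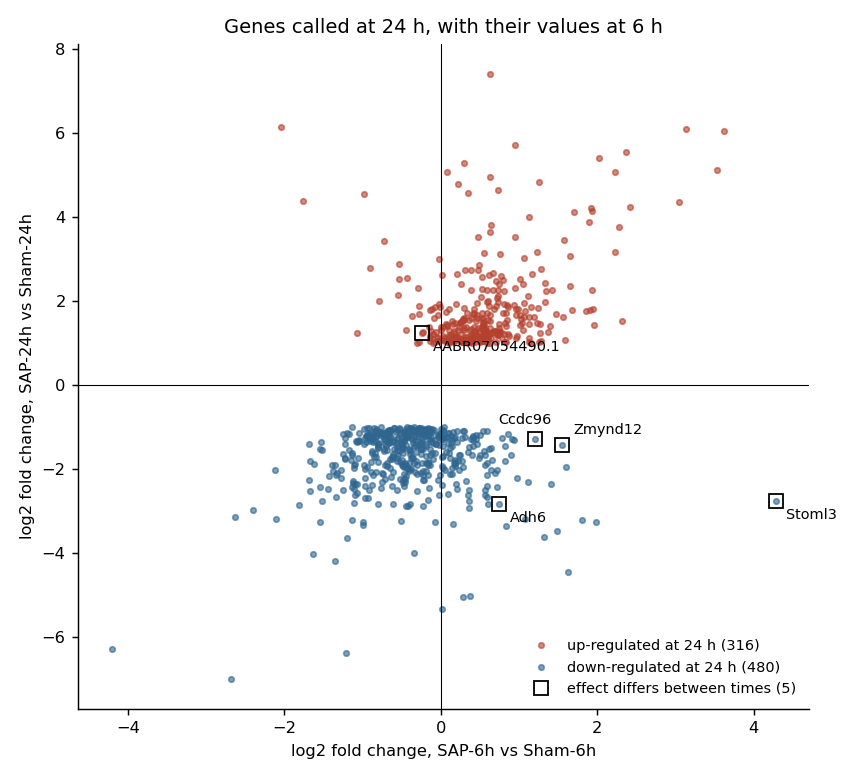
Log2 fold change of SAP-6h vs Sham-6h (horizontal axis) and of SAP-24h vs Sham-24h (vertical axis) for the 316 up-regulated (red) and 480 down-regulated (blue) genes at 24 h. Squares mark the 5 genes whose effect differed between the times; 4 of them lie at positive values at 6 h and negative values at 24 h.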

How the data were processed

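Polyadenylated RNA of rat lung was sequenced with strand kept. Per the labels and methods, the authors trimmed reads with the FASTX-Toolkit, aligned them with TopHat2 allowing 2 mismatches to an Ensembl rat genome called rat_ensembl_v6, discarded reads with several positions and deposited read counts per gene and FPKM values. The counting program and the tool versions are not given in the sources used here. The counts of all 30 libraries (10 groups of 3, 16813949 to 34692306 reads on genes) were fitted in 1 model with edgeR 4.0.16 (R 4.3.3): filterByExpr (minimum count 10, minimum total 15), TMM scaling, quasi-likelihood test with 20 residual degrees of freedom, two-sided, Benjamini-Hochberg adjustment over 15934 genes. Calls required an adjusted p under 0.05 and a change of at least 2-fold. FPKM values served for levels and overlap. Each library is 1 rat. Discarding reads with several positions lowers the counts of genes with near-identical copies.

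Genes were put in 52 lists (22 of cell types, 30 of functions). Genes and lists were chosen with earlier results of these data known. The rule named, among called genes of at least 1 FPKM whose groups did not overlap, the 10 in each direction with the smallest adjusted p, the largest log2 fold change and the largest FPKM difference, then up to 4 called genes per list and direction and its first 2 genes, 3 lncRNAs per direction, and genes called in the interaction. Other list members were named after their values were seen. Promoters were RefSeq's, of GRCr8, which is not the build of the files. The fit was tested on simulated counts of 15778 genes for SAP-24h vs Sham-24h, where 97 of 100 genes changed 4-fold and 87 of 100 changed 3-fold were called, with 5 unchanged genes. The simulated counts took the spread of each gene from the model itself, the same for all groups. They held no outlying rat like SAP-24h rat 1, so these shares do not measure how many real changes or false calls the comparison had. Alternatives were DESeq2 1.42.0, limma 3.58.1 (voom, or log2 of FPKM plus 1 or 0.1), RLE scaling, other filters and thresholds, fewer libraries, a replicate block, and leaving out each rat. Some items are not reported here.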

Additional observations from a re-analysis of the deposited data

Results flagged for a closer look

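For 5 genes the effect of pancreatitis differed between 24 h and 6 h in an interaction term of the edgeR model (24 h minus 6 h on the log2 scale, adjusted p = 0.0471 for each). Adh6 had an interaction of -3.57, with 0.99, 2.14 and 2.23 FPKM in SAP-24h, 8.48, 20.6 and 11.8 in Sham-24h, 16.4, 23.7 and 16.9 in SAP-6h and 9.37, 9.54 and 16.03 in Sham-6h. The alcohol dehydrogenase gene was thus low in SAP-24h only among these groups. Zmynd12 had -2.98, with 0.85, 1.24 and 1.46 FPKM in SAP-24h, 4.67, 3.48 and 2.24 in Sham-24h, 2.97, 5.81 and 3.58 in SAP-6h and 0.93, 1.23 and 2.17 in Sham-6h, and Ccdc96 had -2.48, with 1.54, 1.86 and 1.86 FPKM in SAP-24h, 4.7, 4.35 and 4.84 in Sham-24h, 2.49, 6.04 and 5.72 in SAP-6h and 2.34, 1.75 and 2.23 in Sham-6h. At 6 h SAP rats were the higher group in mean for both, and at 24 h the lower. Stoml3 had -7.04 on few reads, with 0.12, 0.05 and 0.05 FPKM in SAP-24h, 0.55, 0.58 and 0.51 in Sham-24h, 0.18, 1.55 and 1.2 in SAP-6h and 0.04, 0.03 and 0.08 in Sham-6h. The lncRNA AABR07054490.1 had 1.48, with 13.8, 7.86 and 9.96 FPKM in SAP-24h, 4.45, 4.55 and 5.72 in Sham-24h, 6.03, 6.09 and 6.25 in SAP-6h and 7.56, 8.42 and 6.49 in Sham-6h. All 5 were lost in at least 1 fit without 1 rat, and none passed in a model of the 12 libraries alone.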

How the results depend on the processing

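With all libraries in the model, the counts at 24 h (316 up, 480 down) stayed within 1.5 times under RLE scaling, DESeq2, limma-voom and no filter. They moved to 145 and 196 with limma on log2(FPKM + 1), where low genes change less by construction, and the up count to 198 with log2(FPKM + 0.1). Without a minimum fold they were 1083 and 896, and 275 genes were down-regulated when genes had to average 1 FPKM. At an unadjusted p under 0.05 with 2-fold, 868 were down-regulated. In a model of the compared libraries alone, 2 and 1 were called at 24 h, 0 and 0 at 6 h and 0 by interaction, and 2 lists and 3 of the named genes held a call. The share of calls that were up was 39.7%, and 25.6%, 50.6% and 53.7% with log2(FPKM + 0.1), at least 1 FPKM, and without SAP-24h rat 2. With 1 rat left out the 24 h counts were 165 to 402 up and 237 to 449 down, the 6 h counts 3 to 57 and 0 to 3 (main 30 and 5), the interaction 0 to 16, lists with a call 28 to 37 (main 36) and named genes called 87 to 147 (main 155). DESeq2 gave 154 and 37 at 6 h and 146 by interaction, limma-voom 2 down-regulated at 6 h and 0 by interaction, and unadjusted p under 0.05 with 2-fold 449, 174 and 999. No called gene among those named turned its direction. Down-regulated genes outnumbered up-regulated ones with all rats, and the balance turned with a mean of at least 1 FPKM (282 and 275), without SAP-24h rat 2 (402 and 347), without a minimum fold and in the compared libraries alone. The medians of lists could change sign, as for chemokines (0.25, and -0.24 without SAP-24h rat 1), interferon response (0.21, and -0.54 without SAP-24h rat 1), mesothelial genes (0.12, and -0.66 without SAP-24h rat 2) and red cell genes (-0.22, and 1.02 without Sham-24h rat 3). The causes of these shifts were not tested. Depth limits genes with few reads, and some called genes, such as Fga and Mfap4, had under 10 reads in most of the 6 libraries. For SAP-24h and Sham-24h rats with the same number, the deviations from the group means correlated at -0.25, 0.13 and 0.01. So few values cannot tell whether such rats also shared a day or a batch, which the labels do not give. The replicate block gave 288 up and 474 down at 24 h and 9 genes by interaction, and in the compared libraries alone, an alternative chosen after seeing the data, 0 and 0 at 24 h, with 0 lists, 0 named genes and 0 by interaction.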
